A study of Mus musculus with 12 samples.

Results

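The genes of oxidative phosphorylation, nuclear and mitochondrial, were chosen by name and position in the deposited count table, with no use of measured values. Entries that name 1 locus were taken where the locus lies on the mitochondrial genome, or where a symbol begins as those of complex I (Nduf), complex II (Sdha to Sdhd), complex III (Uqcr), complex IV (Cox4 to Cox8) or complex V (Atp5) subunits do. This gave 91 of 20114 single-locus entries, of which 83 were nuclear and 8 mitochondrial. The nuclear entries comprised 37 of complex I, 4 of complex II, 8 of complex III, 17 of complex IV and 17 of complex V. In 15 nuclear entries the symbol is joined with other genes, as in Atp5j+Gabpa or Ndufb6+AK008077+Topors, and the count can hold reads of any of them. Atp5s, Atp5sl and the entry Cox4nb+COX4AL match the names but are not subunits. Cox8c occurred only in entries that name several loci and was not analysed.

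This process is the last stage of respiration in mitochondria. Complexes I, III and IV pass electrons from NADH to oxygen and pump protons across the inner membrane, complex II feeds in electrons from succinate, and complex V uses the proton gradient to make ATP. Most subunits are encoded in the nucleus, and a few core subunits, with the RNAs of the mitochondrial ribosome, are encoded in the mitochondrial genome. Complexes I, III, IV and V therefore need products of both genomes, while complex II is wholly nuclear. In the mammary gland, as in other epithelia, these genes are expressed in every cell type, at levels that differ between cell types.

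RNA came from mammary epithelial cells of 9-week-old adult females whose strain background combined 129X1/SvJ, C57BL/6 and Swiss Webster, and sorting by fluorescence gave 3 groups of 4 libraries. All 3 groups carry the mT-mG reporter, in which Cre turns off a red and turns on a green membrane protein, and the SmoM2 allele, an activated form of the Hedgehog signal transducer Smoothened. Recombined cells (mT-mG/SmoM2;MMTV-Cre, EGFP) are green and SmoM2 positive, unrecombined cells (mT-mG/SmoM2;MMTV-Cre, tdTomato) are red and SmoM2 negative, and wild type cells (mT-mG/SmoM2;+) carry the allele without Cre. The MMTV promoter drives Cre in mammary and salivary epithelium. No group has green cells without SmoM2, so SmoM2, Cre activity, the sort by color and the kinds of cells in which the MMTV promoter is active cannot be told apart. Which animals gave which library is not in the labels, so p-values measure the spread between these libraries, which may be technical.

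Total counts lay between 19581993 and 34779433 per library, and 14039 single-locus entries had enough counts to be tested. The libraries differ in their cells. Markers were counted in recombined against wild type libraries at an adjusted p under 0.05 (edgeR quasi-likelihood test). There, 8 of 9 basal and myoepithelial markers were higher, 7 of 8 luminal hormone-sensing markers lower and 8 of 8 fibroblast markers lower. Of all 14039 loci, 586 were higher and 334 lower. The summed level of the basal list ranged over 1801 to 7653 CPM (counts scaled to a common library size by TMM) in recombined, 479 to 1112 in unrecombined and 848 to 1032 in wild type libraries. That of the hormone-sensing list ranged over 649 to 1829, 2661 to 4421 and 3133 to 5988 CPM, and that of the fibroblast list over 205 to 571, 5108 to 7259.9 and 1386 to 3388 CPM. No marker of these 3 lists was at 0 in any library. Salivary gland transcripts were high in 5 libraries (recombined 1 and 2, unrecombined 1 and 2, wild type 2), with summed levels from 1213 CPM in recombined 1 to 87399.8 CPM in unrecombined 2, and at or under 71.0 CPM in the other 7. Recombined 3 and 4 had the fewest detected loci, 14256 and 14601, against 15289 to 16814 in the other 10. What part these differences have in the results was not tested, and fewer cells of a type and less RNA per cell cannot be told apart in bulk libraries.

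The 8 mitochondrial rows took far more of the counts than the 83 nuclear rows in every library. The mitochondrial share was 17.3, 24.2, 15.9 and 20.7% of single-locus counts in recombined libraries 1 to 4. It was 16.4, 27.8, 13.1 and 18.7% in unrecombined libraries 1 to 4, and 21.2, 14.7, 16.5 and 17.9% in wild type libraries 1 to 4. The 3 groups overlapped, with means of 19.5 ± 3.69%, 19.0 ± 6.29% and 17.6 ± 2.75% (SD, n = 4). The highest shares were those of unrecombined 2 and recombined 2, 2 libraries with salivary gland transcripts, while wild type 2, which also has them, had the lowest share of its group.

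The nuclear rows held 0.364, 0.322, 0.271 and 0.368% of the counts in recombined libraries 1 to 4. They held 0.341, 0.365, 0.331 and 0.428% in unrecombined and 0.437, 0.378, 0.331 and 0.403% in wild type libraries. Means were 0.331 ± 0.0453%, 0.366 ± 0.0435% and 0.387 ± 0.0448% (SD, n = 4), and the groups overlapped here as well. Recombined 3 was the lowest of the 12 libraries and wild type 1 the highest. Per nuclear count there were 47.6, 75.1, 58.8 and 56.2 mitochondrial counts in recombined libraries, 48.3, 76.1, 39.5 and 43.8 in unrecombined and 48.6, 39.1, 49.9 and 44.6 in wild type libraries. The mean of this ratio was 59.4 ± 11.5 in recombined and 45.5 ± 4.88 in wild type libraries (SD, n = 4), and 3 of 4 recombined libraries exceeded the highest wild type library, 49.9. The first 2 mitochondrial rows start where ribosomal RNA genes are listed. Without them the ratio was 8.67, 14.5, 9.81 and 10.2 in recombined libraries 1 to 4. It was 8.58, 12.7, 6.60 and 7.56 in unrecombined and 8.61, 7.15, 7.72 and 6.68 in wild type libraries. All recombined libraries then exceeded all wild type libraries, recombined 1 only narrowly, and overlapped with unrecombined libraries. Since both ratios are sums over the genes chosen, they were given no test.

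**Figure D1:**
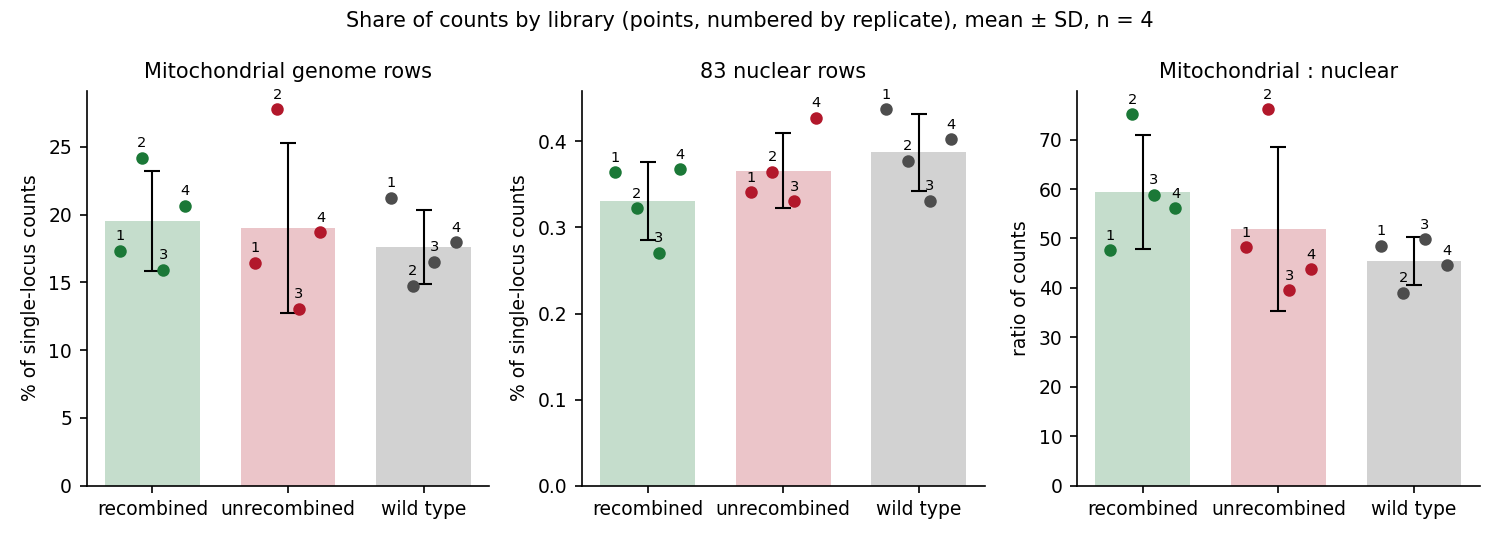
Percent of single-locus counts in the 8 mitochondrial rows (left) and the 83 nuclear rows (middle), and the ratio of the 2 sums (right), by library (points, numbered by replicate), with group means as bars and SD as error bars (n = 4). The mitochondrial share peaks in unrecombined 2 at 27.8% and the nuclear share is lowest in recombined 3 at 0.271%.

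Within the mitochondrial genome, most counts lay in the first 2 rows. These start at positions 69 (AK140265) and 1093 (GU332589+AK018753) of build mm9, where a later annotation, GENCODE M21, lists the ribosomal RNA genes mt-Rnr1 and mt-Rnr2. Together they held between 80.6% and 85.0% of the mitochondrial counts of a library. The row starting at 5326 (DQ539915, nearest to mt-Co1, the catalytic subunit of complex IV) held 7.93% to 9.89%. The row Cytb+BC071253, which starts at 11719, nearest to mt-Nd5 of complex I, and names cytochrome b of complex III, held 6.15% to 8.20%. The remaining 4 rows, AK163440 (start 3848, nearest to mt-Nd2 of complex I), Cox2 (start 7009, subunit 2 of complex IV), Atpase6 (start 7765, nearest to mt-Atp8, beside the complex V subunit it names) and AK141672+mt-Nd4 (start 9202, nearest to mt-Nd3, of complex I as mt-Nd4 is), each held at most 0.724%. The table gives only the start of a row, so which mitochondrial genes a row covers is known no further, and the gene names by position rest on an annotation of another build.

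No mitochondrial row passed the test between groups. Cytb+BC071253 had 12702, 21967, 12257 and 15615 CPM in recombined libraries 1 to 4, 11232, 25608, 8426 and 12448 CPM in unrecombined and 14514, 12299.7, 10133 and 10444 CPM in wild type libraries. Its log2 fold change was 0.40 ± 0.30 (SE) in recombined against wild type libraries (edgeR quasi-likelihood test, Benjamini-Hochberg adjusted p = 0.495), and the groups overlapped. DQ539915 had 16142, 26499.7, 14010.1 and 19044 CPM in recombined, 14745, 31464, 11034 and 14954 CPM in unrecombined and 17868, 13965, 12341 and 13470.3 CPM in wild type libraries, with a log2 fold change of 0.39 ± 0.29 (edgeR adjusted p = 0.488). The first ribosomal row, AK140265, differed least, at 0.07 ± 0.29 (edgeR adjusted p = 0.929), and the second, GU332589+AK018753, stood at 0.31 ± 0.27. The other rows had log2 fold changes of 0.31 (AK163440), 0.37 (Cox2), 0.28 (Atpase6) and 0.34 (AK141672+mt-Nd4) in the same comparison. All 8 were thus above 0, with a median of 0.33 against -0.02 over all loci tested, and the median was 0.10 without recombined 2.

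In unrecombined against wild type libraries, which share the wild type samples with the first comparison, the 8 rows also had values above 0, from 0.10 (AK140265) to 0.35 (GU332589+AK018753). Values were 0.32 for DQ539915, 0.28 for Cytb+BC071253, 0.23 for AK163440, 0.14 for Cox2, 0.18 for Atpase6 and 0.22 for AK141672+mt-Nd4. Their median was 0.22 and turned to -0.16 without unrecombined 2, the library with the highest level of 7 of the 8 rows. Recombined against unrecombined libraries gave a median of 0.09, with 0.23 for Cox2, 0.12 for AK141672+mt-Nd4, 0.12 for Cytb+BC071253, 0.10 for Atpase6, 0.08 for AK163440, 0.07 for DQ539915, -0.03 for AK140265 and -0.03 for GU332589+AK018753. With the replicate number, which pairs these 2 groups, as a block, the median was 0.15 and all 8 rows were above 0, with AK140265 at 0.03 and GU332589+AK018753 at 0.05. Without the block, the median was 0.49 without unrecombined 2 and -0.16 without recombined 2. Within the libraries whose label numbers begin with 23, the 8 rows had a median of 0.51 in recombined against wild type, and within those that begin with 24, which hold only 1 wild type library, 0.23.

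Among nuclear members the subunits differed widely in level. Per length, taken as the median length of the annotated transcripts of a gene (GENCODE M21), Atp5b, the catalytic beta subunit of complex V, led the list. It reached 417 ± 74.0 CPM per 1000 bases in wild type libraries (SD, n = 4), 413 ± 37.2 in recombined and 427 ± 119.6 in unrecombined libraries. Next in wild type libraries came Cox6b1, which helps to join complex IV into dimers, at 168 ± 21.9, Atp5a1, the alpha subunit of complex V, at 157 ± 24.5, Uqcrh, the hinge protein of complex III, at 141 ± 19.8, and Cox4i1, the common form of a regulatory complex IV subunit, at 137 ± 12.3 CPM per 1000 bases. Neighbours among these 4 differed by less than their SD, and all 4 stood below Atp5b by more than its SD. Sdha, the flavoprotein of complex II, had 93.0 ± 18.2, and its partner Sdhb, the iron-sulfur subunit, 10.4 ± 1.26 CPM per 1000 bases. Low levels per length were found for Ndufb4 (0.973 ± 0.370), Ndufs5 (1.66 ± 0.487) and Atp5g2 (0.887 ± 0.174). How reads that map to several places, such as processed pseudogenes of these genes, were counted is not given in the sources used here, and such reads can lower the count of a gene with copies.

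**Figure D2:**
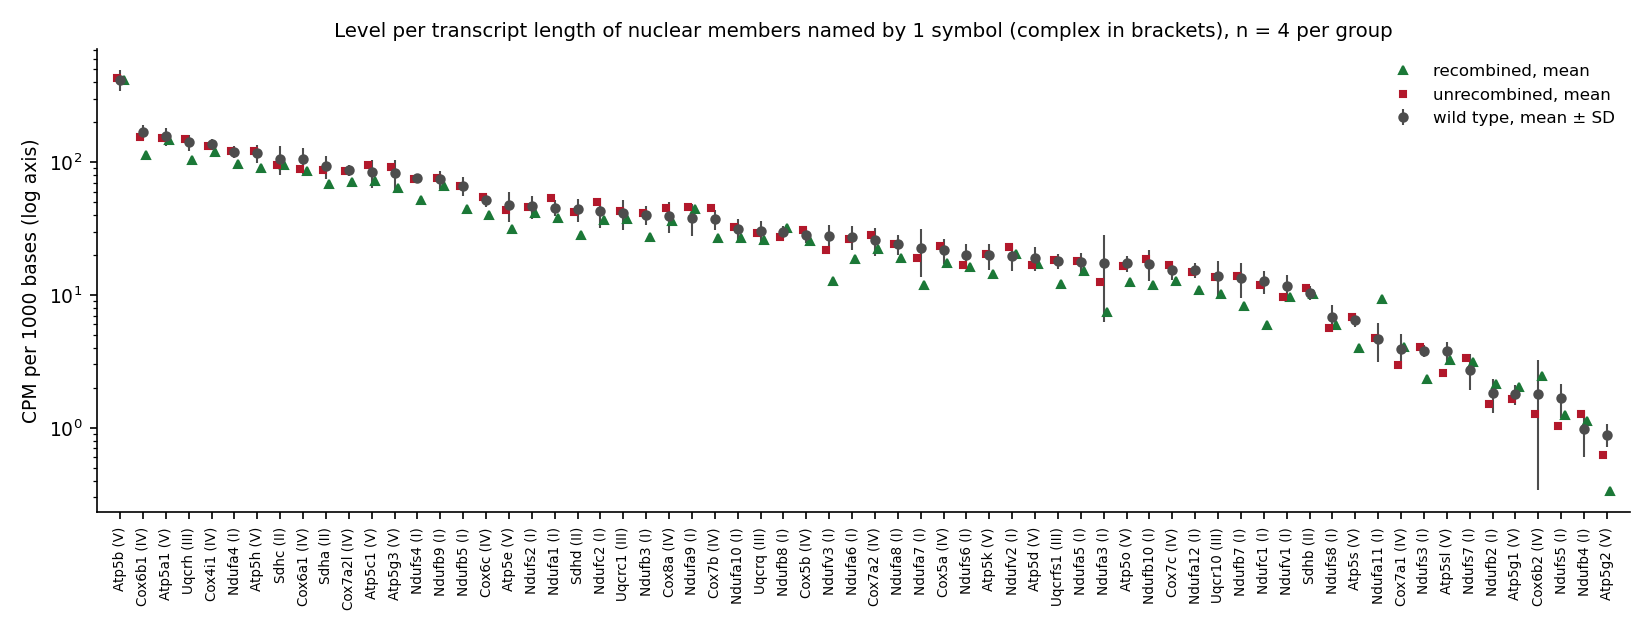
Level per transcript length (CPM per 1000 bases, log axis) of 66 tested nuclear members named by 1 symbol, in order of the wild type mean. Wild type points carry the SD of 4 libraries, and means of the other groups are beside them; Atp5b is highest at 417 and Atp5g2 lowest at 0.887 in wild type libraries.

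Recombined against wild type libraries sets SmoM2-positive green cells beside red wild type cells. Of 80 tested nuclear members (3 of the 83 had too few counts), 0 passed an adjusted p of 0.05 in the edgeR quasi-likelihood test, where 6.55% of all loci did. The values of most members were on one side: 63 of 80 had a negative log2 fold change, with a median of -0.25 against -0.02 over all loci. At an unadjusted p under 0.05 there were 12 of 80, 9 with negative and 3 with positive values. This share lies below the 20.6% of all loci. The 3 positive rows join symbols. Among 66 tested members named by 1 symbol, a split chosen after seeing the data, there were 8 (12.1%), all negative. Of these 66, 56 had negative values, with a median of -0.30. The libraries of the 2 groups did not overlap in 6 members that were lower in recombined cells (Ndufc1, Ndufv3, Ndufs4, Tssk6+Ndufa13, Atp5g2 and Atp5s), where 5.91% of all loci were lower without overlap. They did not overlap in 1 that was higher (Atp5j+Gabpa), where 6.33% of all loci were. DESeq2 called 2 nuclear members, both lower, where it called 958 higher and 659 lower of all 14039 loci. With limma-voom 0 nuclear members passed, where 477 loci were higher and 282 lower.

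The recombined libraries were not alike in this. The median deviation of the 80 members from the wild type mean, on the log2(CPM + 0.5) scale, was -0.15, -0.14, -0.64 and -0.19 in recombined libraries 1 to 4. It was -0.17, 0.37, -0.35 and 0.06 in unrecombined and 0.15, 0.07, -0.26 and 0.03 in wild type libraries. Recombined 3 was the lowest of all 12 libraries for 47 of the 80 members, and unrecombined 2 the highest for 38. Wild type 3 and unrecombined 3 lay below 3 of the 4 recombined libraries, so the groups overlapped. Nuclear-retained RNAs, mainly Malat1, summed to 49684 CPM in recombined 3 and 45080 CPM in unrecombined 3, the 2 highest libraries, and to 43695 CPM in wild type 3, the highest of its group. These are also the 3 libraries with the lowest nuclear medians. Recombined 4 had the next lowest median, -0.19, with the least of this RNA of all 12 libraries, 26915 CPM. Unrecombined 1, with 44033 CPM, had a median of -0.17. The part of this RNA in the members' values was not tested. Without recombined 3 the median log2 fold change was -0.13, and without recombined 3 and 4 it was -0.16. Within the libraries whose numbers begin with 23 (2 recombined, 3 wild type) it was -0.13. Those that begin with 24 set recombined 3 and 4 against wild type 4 alone and gave -0.47, and in the 7 libraries without salivary gland transcripts -0.36.

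**Figure D3:**
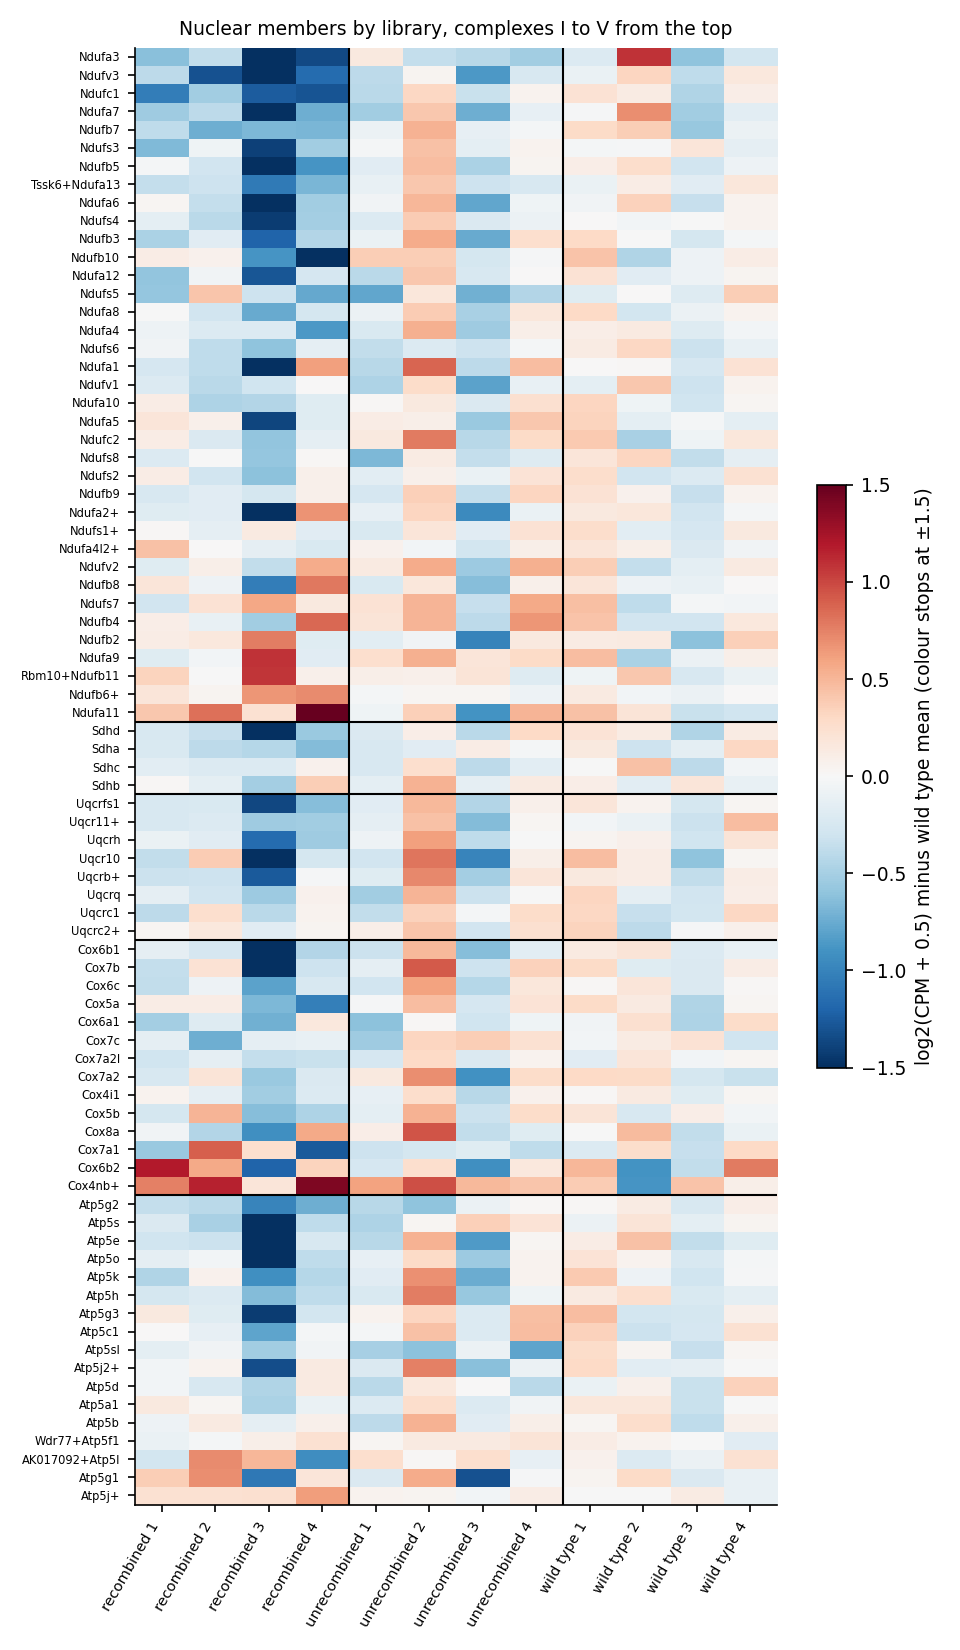
Deviation of each of 80 tested nuclear members from its wild type mean, log2(CPM + 0.5), in 12 libraries (columns), with complexes I to V from top to bottom and members ordered by fold change within a complex. Recombined 3 is the lowest library for 47 members and unrecombined 2 the highest for 38; a + marks a row whose name joins several symbols.

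Transcripts of the nuclear members are short, and values differed by length. Lengths were known for 71 of the 80 members, with a median of 645 bases, and for 12021 of all loci tested, with a median of 2272. In recombined against wild type libraries the median log2 fold change of all loci was -0.08 under 750 bases, -0.10 from 750 to 1500, -0.03 from 1500 to 3000 and 0.05 over 3000. The 43 members under 750 bases had a median of -0.31, the 22 from 750 to 1500 a median of -0.25 and the 6 from 1500 to 3000 a median of -0.06. The part of length in the members' values was not tested.

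Complex I, the NADH dehydrogenase, held the 2 members nearest to the threshold. Both are accessory subunits, Ndufc1 of the membrane arm and Ndufv3 of the matrix arm near the site where NADH is oxidized. Ndufc1 (start 51209400 on chromosome 3, mm9) had 4.48, 6.63, 3.82 and 3.67 CPM in recombined libraries 1 to 4, 7.24, 12.2, 7.61 and 10.1 CPM in unrecombined and 11.4, 10.7, 7.02 and 10.5 CPM in wild type libraries. All recombined libraries lay below all others. The log2 fold change was -1.09 ± 0.31 (SE), or 0.470-fold, at an edgeR adjusted p of 0.0502. Ndufv3 (start 31657059 on chromosome 17, mm9) had 13.4, 6.85, 5.22 and 7.62 CPM in recombined, 13.3, 18.2, 9.48 and 14.8 CPM in unrecombined and 16.5, 22.2, 13.4 and 19.8 CPM in wild type libraries. Here the highest recombined library came just under the lowest wild type library and inside the unrecombined range. The log2 fold change was -1.12 ± 0.32 (SE), or 0.461-fold, at an edgeR adjusted p of 0.0524. Over 27 alternatives Ndufc1 passed in 6 and Ndufv3 in 7, with adjusted p between 0.00612 and 0.607 for Ndufc1 and between 0.00808 and 0.532 for Ndufv3. Of 12 fits that each leave out 1 library, 1 passed for each gene, the fit without its highest recombined library. Leaving out recombined 2 gave Ndufc1 an adjusted p of 0.0328, and leaving out recombined 1 gave Ndufv3 one of 0.00989 (edgeR). The other such fits did not pass, with an adjusted p of up to 0.125 for Ndufc1 and 0.136 for Ndufv3.

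The core subunits of complex I stood closer to 0. Ndufv1, which binds NADH, had 14.0 ± 1.76 CPM in recombined and 16.6 ± 3.77 CPM in wild type libraries (SD, n = 4), a log2 fold change of -0.25 ± 0.27 (edgeR adjusted p = 0.659). The row of Ndufs1, the largest iron-sulfur subunit, had 42.5 ± 4.29 and 43.9 ± 7.48 CPM and a value of -0.05 ± 0.18 (edgeR adjusted p = 0.919). Ndufs4, an accessory subunit needed for a stable complex, ranged over 24.4 to 59.3 CPM in recombined and 64.2 to 68.3 CPM in wild type libraries, without overlap, at -0.55 ± 0.23 (edgeR adjusted p = 0.192). The row of Ndufa13 and Tssk6 also did not overlap, at -0.59 ± 0.24 (edgeR adjusted p = 0.184). Other values at an unadjusted p under 0.05 were -1.21 for Ndufa3, -0.91 for Ndufa7 and -0.70 for Ndufb7, and 1 was positive, 0.43 for the row of Ndufb6, AK008077 and Topors. Topors encodes a ubiquitin and SUMO ligase outside the respiratory chain, and the row had 121, 110.4, 170.2 and 176 CPM in recombined against 100.2 to 117 CPM in wild type libraries, high in recombined 3 and 4. The 7 libraries without salivary gland transcripts, a split chosen after seeing the data, hold only recombined 3 and 4 of the recombined group. There this row passed the threshold, at 0.71 (edgeR adjusted p = 0.0443). Over complex I as a whole, 27 of 37 members had negative values, with a median of -0.25. The most positive value of all members was that of Ndufa11, 1.00 ± 0.50, with 3.40, 4.72, 2.96 and 9.18 CPM in recombined and 3.51, 2.86, 1.83 and 1.90 CPM in wild type libraries, which overlapped (edgeR adjusted p = 0.281).

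Promoters of respiratory genes are known for binding sites of NRF1, of ETS factors such as GABP, and of YY1. Windows of 300 bases around the start of a gene (RefSeq, build GRCm38.p6, 250 before and 50 after the start) were found for 65 of the 83 nuclear rows, with 70 windows in all. The NRF1 core, GCGCA followed at once by its reverse complement TGCGC and so the same on both strands, were in 5 of 70 windows (7.14%) and in 0.971% of all 32851 windows. CCGGAAG, an ETS core searched on both strands, was in 16 (22.9%) against 8.86%, and ATGGCGGC, a YY1 core searched on both strands, in 7 of 70 against 2.24%. Windows of 1 gene can share bases, and these shares describe the sequences and were not tested. The 250 bases before the start are printed 5′ to 3′ on the strand of the gene for the 2 members nearest to the threshold and for 3 with an NRF1 core, among them those with the most negative and the most positive fold change, so that members with values of either sign can be read side by side. Capitals mark an NRF1 or ETS core. The windows are chr3:51408956-51409205 (minus strand) for Ndufc1, chr17:31519865-31520114 (plus strand) for Ndufv3, chr15:102671048-102671297 (minus strand) for Atp5g2, chr17:56717512-56717761 (plus strand) for Ndufa11 and chr5:115348959-115349208 (minus strand) for Cox6a1.
Ndufc1: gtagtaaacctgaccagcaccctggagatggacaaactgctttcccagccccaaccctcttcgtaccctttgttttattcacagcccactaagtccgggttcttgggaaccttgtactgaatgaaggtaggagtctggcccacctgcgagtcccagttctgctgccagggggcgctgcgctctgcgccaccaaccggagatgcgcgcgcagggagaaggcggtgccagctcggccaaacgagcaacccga
Ndufv3: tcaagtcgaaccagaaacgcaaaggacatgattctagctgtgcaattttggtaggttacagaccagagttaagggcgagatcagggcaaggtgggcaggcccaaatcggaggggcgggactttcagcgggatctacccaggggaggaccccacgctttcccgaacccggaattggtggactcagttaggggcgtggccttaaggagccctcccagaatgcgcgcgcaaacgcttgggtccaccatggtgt
Atp5g2: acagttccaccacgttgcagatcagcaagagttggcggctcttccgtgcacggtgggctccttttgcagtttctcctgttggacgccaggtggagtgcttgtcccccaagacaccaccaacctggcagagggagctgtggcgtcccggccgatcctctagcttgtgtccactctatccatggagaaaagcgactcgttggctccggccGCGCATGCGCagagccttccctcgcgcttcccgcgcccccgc
Ndufa11: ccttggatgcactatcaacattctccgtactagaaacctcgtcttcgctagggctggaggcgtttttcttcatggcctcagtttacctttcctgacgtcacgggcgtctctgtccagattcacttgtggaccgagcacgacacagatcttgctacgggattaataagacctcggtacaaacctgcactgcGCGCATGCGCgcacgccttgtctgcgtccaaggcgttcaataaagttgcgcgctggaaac
Cox6a1: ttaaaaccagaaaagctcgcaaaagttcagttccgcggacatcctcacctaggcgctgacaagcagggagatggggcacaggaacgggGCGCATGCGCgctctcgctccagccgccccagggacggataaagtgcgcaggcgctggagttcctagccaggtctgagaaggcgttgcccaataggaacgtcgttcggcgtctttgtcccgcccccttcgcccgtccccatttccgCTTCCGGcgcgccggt

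Neither Ndufc1 nor Ndufv3 holds any of the 3 strings in these 250 bases. Atp5g2 and Ndufa11, at the 2 ends of the range of fold changes in recombined against wild type libraries, both hold the NRF1 core, beginning 42 and 60 bases before the start. Cox6a1, which holds an NRF1 core beginning 162 bases before the start and an ETS core on the other strand beginning 16 before it, had 41.3, 51.4, 35.6 and 65.9 CPM in recombined and 56.9, 69.5, 42.5 and 71.5 CPM in wild type libraries. Atp5g2 and Ndufa11 were chosen for their fold changes, so their opposite signs are no result. Of the 5 members with an NRF1 core in a window, 4 had negative values in recombined against wild type libraries. Among all 80 tested nuclear members 63 did, a similar share. The 4 were Atp5g2, Atp5k (-0.45), Cox6a1 (-0.31) and Uqcrc1 (-0.13).

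Complex II, the succinate dehydrogenase, has 4 subunits, all nuclear, and serves the citric acid cycle as well as the chain. All 4 had negative values, with a median of -0.30. Sdha had 142, 126, 123 and 105 CPM in recombined libraries 1 to 4, 140.0, 148, 179.8 and 163 CPM in unrecombined and 185, 134, 149.6 and 206 CPM in wild type libraries. Recombined 1 overlapped with the lowest wild type library. Its log2 fold change was -0.44 ± 0.16 (edgeR adjusted p = 0.130), with the same sign in all 27 alternatives, from -0.84 to -0.22, and 0 of them past the threshold. Sdhd, a membrane anchor, stood at -0.65 ± 0.29 (edgeR adjusted p = 0.218), with recombined 3 at 15.5 CPM and the other recombined libraries at 36.1 to 44.9 CPM. Sdhc, the other anchor, stood at -0.15 ± 0.19 and Sdhb at -0.04 ± 0.26, both within their standard error.

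Complex III, which passes electrons from ubiquinol to cytochrome c, was represented by 8 members. All 8 had negative values, from -0.57 (Uqcrfs1) to -0.00218 (the row of Uqcrc2), with a median of -0.44, and 0 had an unadjusted p under 0.05. Uqcrfs1, the Rieske iron-sulfur protein, had 20.6, 20.9, 9.20 and 15.6 CPM in recombined and 27.9, 25.4, 20.3 and 25.1 CPM in wild type libraries (log2 fold change -0.57 ± 0.28, edgeR adjusted p = 0.265). Uqcrh had 61.9, 58.9, 29.5 and 45.5 CPM in recombined and 68.3, 69.6, 53.6 and 75.7 CPM in wild type libraries (-0.45 ± 0.25, edgeR adjusted p = 0.339). In both, recombined 3 was far below the other 3 recombined libraries. Uqcrc1, a core protein, had 20.0 ± 4.69 CPM in recombined and 21.9 ± 5.51 CPM in wild type libraries (SD, n = 4), at -0.13 ± 0.25. Summed over the 8 members, complex III took 287, 293, 168 and 295 CPM, taken outside the mitochondrial genome, in recombined libraries, and 412, 275, 277 and 365 in wild type libraries. Recombined 3 was lowest in this sum, and the other 3 recombined libraries lay within the wild type range.

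Complex IV, cytochrome c oxidase, had 14 tested members, 11 of them with negative values and a median of -0.25. Cox4i1 had 89.0 ± 14.3 CPM in recombined and 102 ± 9.18 CPM in wild type libraries (SD, n = 4), at -0.19 ± 0.17 (edgeR adjusted p = 0.581). Cox7a2l, which takes part in joining complexes III and IV into supercomplexes, had 77.7, 86.6, 74.5 and 75.5 CPM in recombined and 85.0, 108, 92.5 and 97.6 CPM in wild type libraries, at -0.29 ± 0.15 (edgeR adjusted p = 0.316). Only recombined 2 reached the wild type range of Cox7a2l. Ndufa4 stood at -0.31 ± 0.23, Cox6b1 at -0.56 ± 0.34 and Cox6a1 at -0.31 ± 0.23. By its name Ndufa4 is in the complex I counts here, though its protein is now placed in complex IV. The only positive value at an unadjusted p under 0.05 belonged to the row Cox4nb+COX4AL, a neighbour of Cox4i1 that is part of the endoplasmic reticulum and not of the chain, at 0.89 ± 0.33 (edgeR adjusted p = 0.134). That row had 20.3, 27.1, 13.6 and 32.2 CPM in recombined, 18.3, 23.6, 16.7 and 16.0 CPM in unrecombined and 15.5, 6.19, 16.0 and 12.6 CPM in wild type libraries, with recombined 3 inside the wild type range.

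Some complex IV and complex V subunits exist as isoforms, with forms typical of heart and skeletal muscle, lung or testis beside the common form. Of the muscle forms, Cox6a2 shares its row with Itgad and 2 further symbols, and the row had 1, 1 and 4 counts in recombined 3, unrecombined 1 and wild type 3 and 0 in the other 9 libraries, where 0 counts allow up to 3, or between 0.0895 and 0.124 CPM. Cox8b had 11, 38 and 4 counts summed over the 4 recombined, unrecombined and wild type libraries. Cox7a1, the heart and muscle form of a complex IV subunit, had 0.985, 3.59, 2.10 and 0.412 CPM in recombined, 1.27, 1.32, 1.44 and 1.19 CPM in unrecombined and 1.40, 2.13, 1.22 and 2.18 CPM in wild type libraries (0.03 ± 0.62 in recombined against wild type, edgeR adjusted p = 0.987). Per length it made up 4.16% to 22.0% of Cox7a1 and Cox7a2 together in recombined, 6.77% to 20.0% in unrecombined and 9.23% to 20.0% in wild type libraries. The spread within each group was wider than the difference between the groups. Cox4i2, the lung form of the regulatory subunit, was at 13, 30 and 36 counts in the 3 groups and at most 0.573% of both Cox4i forms per length in any library. Cox6b2, the testis form, stood at 0.47 ± 1.07 (edgeR adjusted p = 0.861) and at most 3.12% of both Cox6b forms. Ndufa4l2, a relative of Ndufa4 induced by low oxygen, shares its row with Shmt2, and the row stood at 0.04 ± 0.22 (edgeR adjusted p = 0.952). The common partners Cox7a2 and Cox8a stood at -0.22 ± 0.32 and -0.14 ± 0.36. The skeletal muscle marker list summed to 0.453 to 2.78 CPM in recombined, 0.251 to 1.25 in unrecombined and 0.644 to 2.13 CPM in wild type libraries.

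Complex V, the ATP synthase, had 17 members, 13 with negative values and a median of -0.21. Its 2 most abundant members did not differ beyond the spread of the libraries. Atp5b had 747, 869, 717 and 833 CPM in recombined libraries 1 to 4, 601, 1129, 703 and 842 CPM in unrecombined and 808, 948, 607 and 834 CPM in wild type libraries, at -0.01 ± 0.19 (edgeR adjusted p = 0.980). Atp5a1 had 378 ± 66.1 CPM in recombined and 405 ± 63.1 CPM in wild type libraries (SD, n = 4), at -0.10 ± 0.17 (edgeR adjusted p = 0.806). The genes Atp5g1, Atp5g2 and Atp5g3 encode the same mature ring subunit c. Atp5g3 was the main source of counts, with 59.3 ± 15.2 CPM in wild type libraries, and stood at -0.37 ± 0.29, with Atp5g1 at 0.18 ± 0.48. Atp5g2 had the most negative value of all members, -1.38 ± 0.78 (edgeR adjusted p = 0.346), and rests on 26 counts over the 4 recombined and 65 over the 4 wild type libraries. The row Atp5j+Gabpa joins a stalk subunit with the DNA-binding subunit of GABP, an ETS-family activator of respiratory genes. This row had 199, 199, 201 and 263 CPM in recombined, 176, 174, 165 and 183 CPM in unrecombined and 169, 169, 185 and 157 CPM in wild type libraries. All recombined libraries were above all others, at a log2 fold change of 0.34 ± 0.13 (edgeR adjusted p = 0.145), and the counts cannot say which of the 2 genes contributed. Atp5s, which is no subunit, stood at -0.70 ± 0.43, and Atp5sl at -0.21 ± 0.30.

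**Figure D4:**
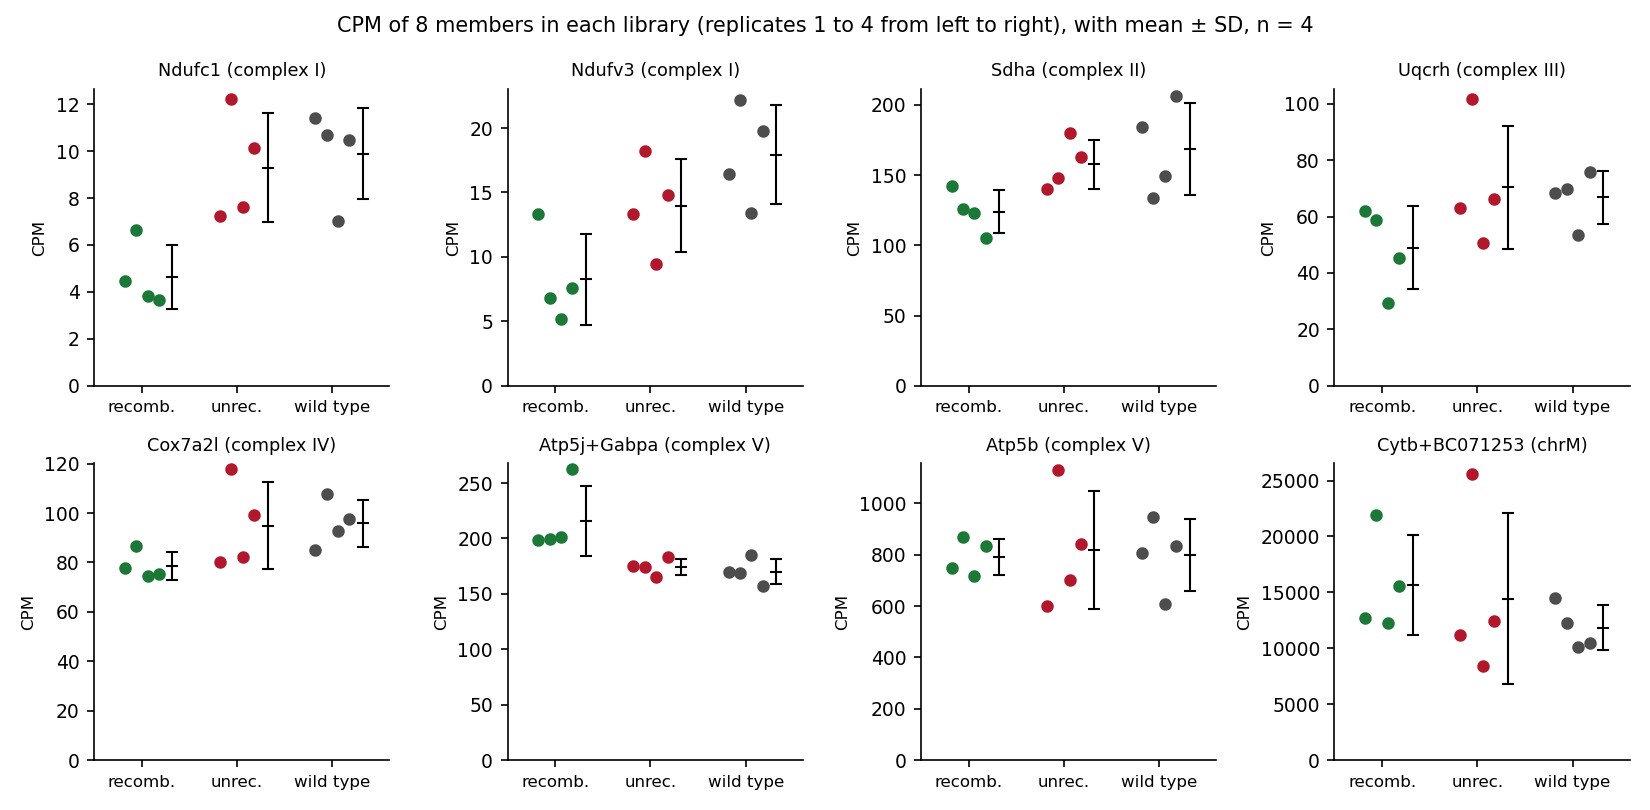
CPM of 8 members in 12 libraries, with the mean and SD of each group (n = 4) at the right of its points. Recombined libraries lie below all others for Ndufc1 (3.67 to 6.63 CPM) and above all others for Atp5j+Gabpa (199 to 263 CPM), and overlap with wild type for Sdha, Uqcrh, Cox7a2l, Atp5b and the mitochondrial row Cytb+BC071253.

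Recombined against unrecombined libraries compares green and red cells of the same genotype. Again 0 of 80 nuclear members passed the edgeR test, where 5.22% of all loci did. DESeq2 called 1, Ndufc1, where it called 782 higher and 567 lower of all 14039 loci. Negative values were found for 62 of 80, with a median of -0.28 against -0.01 over all loci. At an unadjusted p under 0.05 there were 8 of 80, 6 of them negative, where 18.0% of all loci were. Groups did not overlap for Ndufb7 and Ndufc1, which were lower (5.71% of all loci), and for Atp5j+Gabpa and the row of Ndufb6, which were higher (5.57% of all loci). The median was -0.10 without unrecombined 2 and -0.15 without recombined 3. Within the libraries whose numbers begin with 23 it was -0.27, and within those that begin with 24 -0.28.

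Of complex I, Ndufc1 had the smallest p, at -0.998 ± 0.31 (edgeR adjusted p = 0.0826), followed by the row of Ndufb6 at 0.44 ± 0.16 (edgeR adjusted p = 0.137). Ndufv3 stood at -0.75 ± 0.32, Ndufv1 at 0.00 ± 0.27 and the row of Ndufs1 at -0.05 ± 0.18. Sdha and Sdhd of complex II had values of -0.35 ± 0.16 and -0.59 ± 0.29, and Sdhb -0.16 ± 0.26. Uqcrfs1 and Uqcrh of complex III had -0.59 ± 0.28 and -0.52 ± 0.25, and Uqcrc1 -0.18 ± 0.25. In complex IV, Cox7b, a small membrane subunit, had -0.73 ± 0.40 (edgeR adjusted p = 0.367), with 28.5, 42.6, 7.37 and 29.4 CPM in recombined and 33.4, 70.0, 29.6 and 46.7 CPM in unrecombined libraries, which overlapped. These 2 groups pair by replicate number, and Cox7b was lower in the recombined library of all 4 pairs, at -0.84 with the number as a block (edgeR adjusted p = 0.164). Values with the block were read for isoforms, core subunits and members with the 2 smallest p of their complex, but not for Ndufv3. Of the members read, Ndufc1 and Sdhd had the smallest adjusted p with the block. They stood at -1.01 (edgeR adjusted p = 0.0609) and -0.67 (edgeR adjusted p = 0.0804), and 0 nuclear members passed. The other values here are without the block. Cox7a2l stood at -0.27 ± 0.15, Cox4i1 at -0.16 ± 0.17, Cox6b1 at -0.45 ± 0.33, Cox6a1 at -0.05 ± 0.23 and Ndufa4 at -0.32 ± 0.23. In complex V, Atp5j+Gabpa stood at 0.31 ± 0.13 (edgeR adjusted p = 0.219) and Atp5s at -0.77 ± 0.43, while Atp5b and Atp5a1 stood at -0.05 ± 0.19 and -0.05 ± 0.17. Of the isoforms, Atp5g1, Atp5g2 and Atp5g3 had 0.31, -0.87 and -0.51, Cox7a1 0.44, Cox7a2 -0.35, Cox6b2 0.95, Cox8a -0.33 and the row of Ndufa4l2 and Shmt2 0.08. This comparison shares the recombined libraries with the one against wild type, so the 2 sets of values are not independent.

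Unrecombined against wild type libraries compares red cells of animals with and without Cre. Here 0 of 80 nuclear members passed, as did 0% of all loci, and 0 had an unadjusted p under 0.05, where 3.85% of all loci did. Groups overlapped for all 80, against 1.55% of all loci lower and 2.86% higher without overlap. The members split evenly, 39 negative and 41 positive, with a median of 0.01 that was -0.16 without unrecombined 2. DESeq2 and limma-voom called 0 and 0 nuclear members. Of the members with the smallest p of each complex, Ndufv3 stood at -0.36 ± 0.31, Ndufs6 at -0.25 ± 0.25, Sdhc at -0.15 ± 0.19, Sdha at -0.10 ± 0.16, the row of Uqcrc2 at 0.11 ± 0.19, the row of Uqcrb at 0.12 ± 0.29, Cox6a1 at -0.25 ± 0.23, the row Cox4nb+COX4AL at 0.57 ± 0.33, Atp5sl at -0.53 ± 0.30 and the row Wdr77+Atp5f1 at 0.12 ± 0.14. Of the core subunits followed in each comparison, Ndufv1 stood at -0.25, Sdhb at 0.12, Atp5b at 0.03 and Atp5a1 at -0.05. The standard error of such a value was 0.19 for Atp5b and 0.31 for Ndufv3. Changes larger than these standard errors can also go undetected with 4 libraries a group. Ndufc1, at -1.09 ± 0.31 in recombined against wild type libraries, did not pass.

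**Figure D5:**
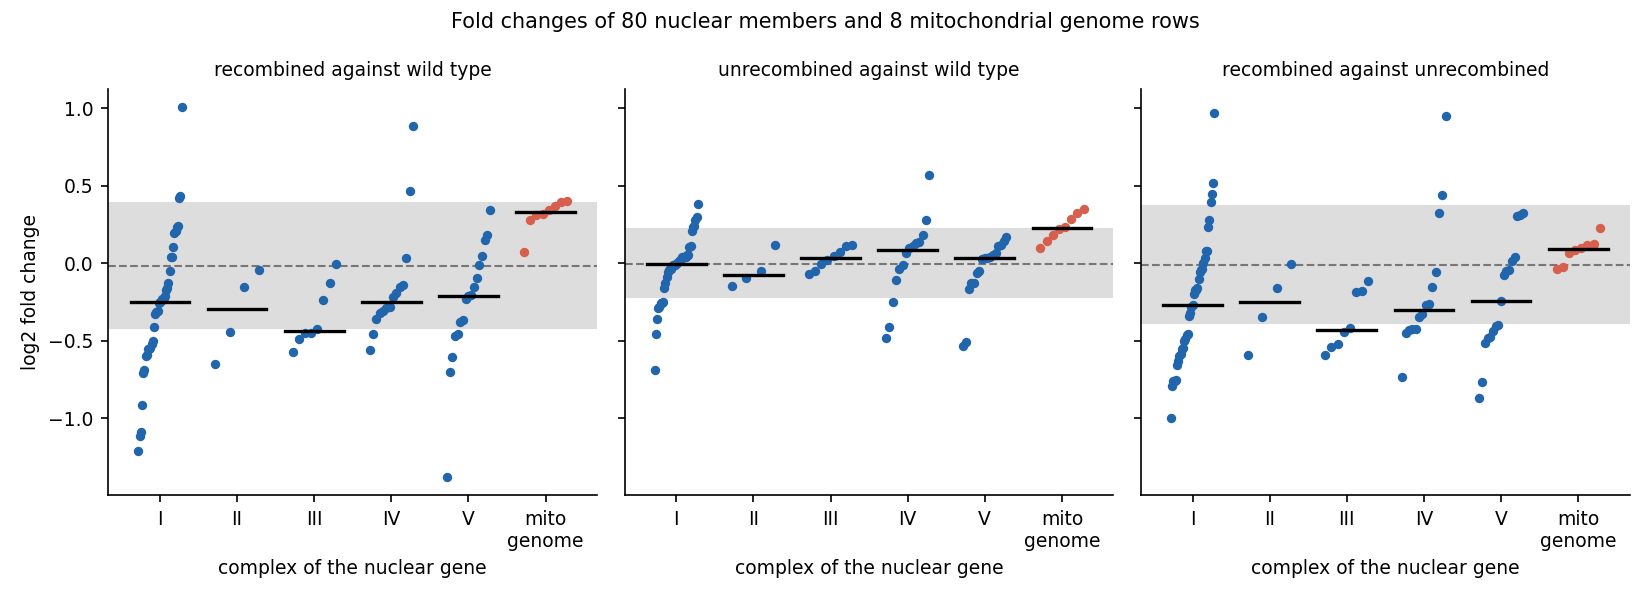
Log2 fold changes of tested members (points) by complex, with the median of each complex as a black bar, for the 3 comparisons; the dashed line is the median and the grey band the interquartile range of all 14039 loci. Nuclear members lie mostly below 0 where recombined cells are compared (medians -0.25 and -0.28) and around 0 in unrecombined against wild type, and the mitochondrial rows lie above 0 in both comparisons with wild type.

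The other genes of respiration were followed in lists chosen by name. Mitochondrial ribosomal proteins, which make the subunits encoded in the mitochondrial genome, had 0 of 76 past the threshold and a median of -0.20 in recombined against wild type, with 54 negative. Against unrecombined libraries their median was -0.27, and between unrecombined and wild type libraries 0.02. Ribosomal proteins of the cytosol had 0 of 79 past the threshold and medians of -0.10, -0.12 and 0.03 in the same order. The 17 genes of the citric acid cycle had 0 past the threshold and medians of 0.03, -0.03 and 0.06, and Cs, citrate synthase, stood at -0.06 ± 0.21 in recombined against wild type. Of 18 other carriers and regulators, among them cytochrome c (Cycs, 0.03 ± 0.38) and the uncoupling protein Ucp2 (0.78 ± 0.28, edgeR adjusted p = 0.121), 0 passed, with a median of -0.08. Unadjusted p values under 0.05 in recombined against wild type numbered 6 of 76, 4 of 79, 0 of 17 and 2 of 18 in these 4 lists, shares that all lie below the 20.6% of all loci.

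Assembly factors, which build the complexes without being part of them, gave 1 call of 27 found in recombined against wild type libraries, a share below the 6.55% of all loci. It was the row of Cox11, which delivers copper to complex IV, joined with Tom1l1, an adaptor of endosomal sorting, so the change may belong to either gene. The row had 65.2, 52.9, 54.3 and 40.6 CPM in recombined libraries 1 to 4, 65.2, 77.7, 88.4 and 75.1 CPM in unrecombined and 95.2, 88.9, 65.0 and 80.3 CPM in wild type libraries. It fell by 0.63 ± 0.18 (SE) on the log2 scale (edgeR adjusted p = 0.0491), and recombined 1 overlapped with wild type 3. Of 12 fits that each leave out 1 library, 2 kept the call (without recombined 1 and without wild type 3), and the adjusted p ranged over 0.0236 to 0.128. Against unrecombined libraries the value was -0.52 ± 0.18 (edgeR adjusted p = 0.115), and 0 of the 27 factors passed there or in unrecombined against wild type. The median of the 27 was -0.03 in recombined against wild type and -0.10 against unrecombined libraries.

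Of 19 genes found that control mitochondrial biogenesis and the expression of mitochondrial DNA, 0 passed in any comparison. At an unadjusted p under 0.05 there were 5 of 19 in recombined against wild type, 3 higher and 2 lower, where 20.6% of all loci were. Mrpl43+Peo1 is named for the smallest p of the 19 in recombined against wild type libraries, and the others by role. These choices were outside the rule for names and made with the values known. The row of Ppargc1a, the coactivator PGC-1 alpha that turns on respiratory genes, had 6.53, 154, 6.94 and 14.7 CPM in recombined libraries 1 to 4, 6.44, 204, 5.06 and 6.14 CPM in unrecombined and 4.25, 14.0, 3.36 and 4.33 CPM in wild type libraries. It was high in recombined 2 and unrecombined 2, the libraries with the highest mitochondrial shares and high salivary gland transcripts, and wild type 2 was the highest of its group. Its log2 fold changes of 2.82 ± 1.56 against wild type (edgeR adjusted p = 0.350) and -0.28 ± 1.45 against unrecombined libraries had wide standard errors. The row Mrpl43+Peo1 joins a mitochondrial ribosomal protein with Twinkle, the helicase that unwinds mitochondrial DNA, and had 14.1, 14.8, 3.82 and 13.3 CPM in recombined, 14.2, 15.4, 15.2 and 16.5 CPM in unrecombined and 20.3, 27.3, 22.0 and 22.6 CPM in wild type libraries. All recombined libraries lay below all wild type libraries, at -1.002 ± 0.33 (edgeR adjusted p = 0.0948), where 5.91% of all loci were lower without overlap. All unrecombined libraries also lay below all wild type libraries, at -0.59 ± 0.33, where 1.55% of all loci did. Tfam, which packs and transcribes mitochondrial DNA, had 19.0, 12.4, 16.0 and 11.3 CPM in recombined and 16.4, 15.1, 15.8 and 15.0 CPM in wild type libraries, at -0.09 ± 0.26. The factors that bind promoters of respiratory genes were also near 0 in recombined against wild type, with 0.06 ± 0.26 for Nrf1, 0.07 ± 0.18 for Yy1 and 0.04 ± 0.35 for the row of Esrra, while Gabpa is in the row with Atp5j described above. Lrpprc, which stabilizes mitochondrial messages, stood at -0.03 ± 0.17, and Polrmt, the mitochondrial RNA polymerase, at -0.93 ± 0.74 with at most 5.37 CPM in any library.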

How the data were processed

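RNA of 12 sorted cell samples was sequenced by the study, and the authors deposited a table of read counts per entry, made with STAR, HTSeq 0.3.1 and build mm9 per the submitters' processing notes. Settings for strand and for reads with several positions are not given in the sources used here. Entries that name several loci (16521 of 36635, 0.0617% to 0.101% of counts) were left out. Row starts are printed as the table gives them, and it gives no row's end. The deposited counts were tested with edgeR 4.0.16 (R 4.3.3): TMM scaling, filterByExpr, 1 quasi-likelihood fit over all 12 libraries, 3 contrasts, and Benjamini-Hochberg adjustment over 14039 loci, with a threshold of 0.05. Groups follow the labels. Members and lists were chosen with earlier results of these data known. The rule names mitochondrial rows, isoform pairs, core subunits, the 2 smallest p of each complex and comparison, and list members past the threshold. Other members are named for libraries that do not overlap, an unadjusted p under 0.05, a sequence motif, or their level or fold change. CPM per 1000 bases uses GENCODE M21 transcript lengths. Alternatives were DESeq2 1.42.0, limma 3.58.1 (voom), other scalings and filters, a replicate block, and leaving out libraries, and the splits by salivary transcripts, label number, length class and single-symbol rows were chosen after seeing the data. Recombined and unrecombined libraries of the same number deviated together (correlations 0.278 to 0.482, against -0.256 to -0.0326 between different numbers). Counting error is all that count floors cover.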

Additional observations from a re-analysis of the deposited data

Results flagged for a closer look

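Values of 4 libraries of a group were searched for 1 that stands apart, by the gap to its nearest neighbour as a share of the group's range (above Dixon's critical value), and 9 of 171 groups of 4 had one, where chance gives about 1 in 20. Among recombined libraries, recombined 3 was lowest in the median deviation of nuclear members from the wild type mean (-0.64 on the log2(CPM + 0.5) scale), in complex III (168 CPM outside the mitochondrial genome) and in complex IV (329). Recombined 4 was highest for Atp5j+Gabpa (263 CPM), and recombined 2 for AK141672+mt-Nd4 (1938 CPM). Unrecombined 2, which has the most salivary gland transcripts, was highest of its group for the mitochondrial rows AK140265 (96924 CPM) and Cox2 (117 CPM). Wild type 3 was lowest of its group for Sdhd (38.9 CPM) and Uqcrb+Gm10767 (43.0 CPM).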

How the results depend on the processing

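In recombined against wild type libraries, the 0 nuclear members past the threshold became 2 with DESeq2's test, its size factors, upper quartile scaling or a stricter filter, and 1 in the 7 libraries without salivary gland transcripts or with the mitochondrial rows left out of the scaling. Fits without 1 library gave 0 to 1. All loci past the threshold, 920 in the fit reported, were 1617 with DESeq2, 594 with only those 2 groups, 248 without recombined 3 and 4, 75 within the libraries whose label numbers begin with 23, 17 within those that begin with 24 (2 recombined against 1 wild type library, assumed to vary like the others), and 502 (without wild type 4) to 1217 (without recombined 1) with 1 library left out. Recombined against unrecombined libraries gave 1 nuclear member with DESeq2 and 0 to 1 with 1 library left out. Its loci past the threshold, 733, were 1349 with DESeq2, 283 without recombined 3 and 4, 106 and 115 within the 2 number ranges, and 449 (without unrecombined 1) to 1044 (without recombined 1) with 1 library left out. Its mitochondrial median was -0.0310 within the libraries beginning with 23 and -0.16 (without recombined 2) to 0.49 (without unrecombined 2) with 1 library left out. Unrecombined against wild type, with 0 loci, gave 78 with DESeq2, 18 with limma-voom, 61 with library weights and 8 with only those 2 groups. Its nuclear median of 0.01 turned to -0.0196 with upper quartile scaling, -0.000116 with mitochondrial rows out of the scaling, -0.0283 with limma-voom, -0.0288 with weights, -0.00112 with no filter, -6.99e-05 with 2 groups, -0.108 in the 7 libraries and -0.145 within the libraries beginning with 24, and ranged over -0.16 (without unrecombined 2) to 0.10 (without unrecombined 3) with 1 library left out. Its mitochondrial median was -0.17 in the 7 libraries, -0.0910 within those that begin with 24, and -0.16 (without unrecombined 2) to 0.43 (without unrecombined 3) with 1 library left out. The cause of these shifts was not tested. With the replicate number as a block, 2 nuclear members passed in recombined against wild type, Ndufc1 (edgeR adjusted p = 0.0364) and Ndufv3 (edgeR adjusted p = 0.0256), where same-number correlations were -0.0340, 0.281, 0.167 and 0.148. They were -0.00369, 0.376, 0.226 and 0.173 between unrecombined and wild type, and since 1 of 4 was below 0 in each, the numbers were not taken to pair wild type libraries. The block gave 1194 loci there, 980 in recombined against unrecombined with 0 nuclear members and a nuclear median of -0.30, and 1 locus in unrecombined against wild type, with a nuclear median of -0.0184. Taken outside the mitochondrial genome, nuclear members held 0.413% of counts in recombined, 0.455% in unrecombined and 0.471% in wild type libraries. Genes named by the rule had 2974 values under alternatives. Of these, 2940 kept their side of the threshold, 15 passed only there and 19 were lost. With a call 0 reversed, and 245 uncalled values changed sign. Depth limits 15 nuclear members that had under 50 counts in a library, Atp5g2 among them.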
